A study of Mus musculus and Rattus norvegicus with 30 samples.

Results

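Satellite glial cells are represented here by 10 marker genes, taken by their gene symbols: Gfap, Fabp7, Glul, Apoe, S100b, Slc1a3, Gja1, Cdh19, Plin4 and Sparcl1. All 10 are among the 54315 features of the mouse count table, and 9 of them (not Plin4) are among the 39281 features of the rat table. RNA was sequenced from whole dorsal root ganglia (DRG), where the cell bodies of sensory neurons lie, after nerve injury or sham surgery. The mice were of the strains BALB/c and B10.D2, adults bought at 4 to 8 weeks of age, both sexes, with the L3 and L4 ganglia of 1 animal in each ribosome-depleted library, taken 28 days after surgery. Spared nerve injury (SNI) cut the common peroneal and sural branches of the sciatic nerve and left the tibial branch, and sham mice had the nerve exposed without a cut. There were 6 BALB/c sham libraries (3 male, 3 female), 4 BALB/c SNI (2 male, 2 female), 5 B10.D2 sham (3 male, 2 female) and 5 B10.D2 SNI (2 male, 3 female). Rats were male Wistar, with L5 ganglia of 3 animals pooled in each poly-A library 21 days after ligation and transection of the L5 spinal nerve (SNT, 4 pools) or sham surgery (4 pools). The SNI ganglia hold a mix of cut and spared neurons.

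Satellite glial cells wrap the cell bodies of sensory neurons. They take up glutamate and potassium from the space around the neuron, turn glutamate into glutamine, pass ions and metabolites to each other through gap junctions, and are known for a rise of the filament protein GFAP after nerve injury. They share their neural crest origin and many of their genes with Schwann cells, so that a marker measured in whole ganglion RNA is not read from satellite glia alone.

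Library totals were 29.99 M to 41.9 M read pairs (M, mega) in mouse and 11.95 M to 17.9 M in rat. Levels are given as CPM, counts per M read pairs, after TMM scaling of library totals, and changes as log2 fold changes with their standard error (SE) from edgeR's quasi-likelihood fit over all features. A gene is called where the p-value, adjusted by the Benjamini-Hochberg method over all 24685 mouse or 13690 rat features tested, is under 0.05. Injury markers of neurons (12 genes such as Atf3, Gal and Npy) summed to 213 to 283 CPM in all mouse sham libraries, to 784 to 933 CPM in BALB/c SNI and to 588 to 692 CPM in 4 of the 5 B10.D2 SNI libraries. The exception, B10.D2 SNI library 76, was at 348 CPM. In rat, sham pool 4 stood apart from the other sham pools, with an injury marker sum of 799 CPM against 315 to 350 CPM, and all SNT pools were at 1128 CPM or more. BALB/c SNI library 49 and BALB/c sham libraries 50 and 51, all male, stood apart from the other 17 mouse libraries in genes of the circadian clock, as given with Fabp7. Values without these libraries are given beside many of the results that they move, and the others are given in the closing sections. Nothing here can tell fewer cells of a type from less RNA per cell.

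Per kilobase of merged exon, the levels of the markers in BALB/c sham were ordered as follows. Apoe, which carries lipids between cells, stood at 733 ± 58.2 CPM per kilobase (SD, n = 6), followed by S100b, a calcium-binding protein, at 397 ± 45.7 (SD, n = 6). Sparcl1, a secreted matrix protein, was at 151 ± 14.9, Glul, the enzyme that makes glutamine, at 130 ± 13.2, and Fabp7, a carrier of fatty acids, at 119 ± 55.7 (SD, n = 6 each). The ranges of these neighbours overlapped, and in B10.D2 sham Fabp7 was the highest of them at 156 ± 45 (SD, n = 5). Cdh19, a cadherin of the glial lineage, was next at 38.2 ± 3.76 (SD, n = 6). The connexin gene Gja1 at 3.24 ± 0.359, the glutamate transporter gene Slc1a3 at 2.93 ± 0.284 and Plin4, which coats lipid droplets, at 2.73 ± 1.25 had overlapping ranges (SD, n = 6 each). Gfap had the lowest mean, 0.544 ± 0.523 (SD, n = 6), and its highest library overlapped with the range of Plin4.

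**Figure D1:**
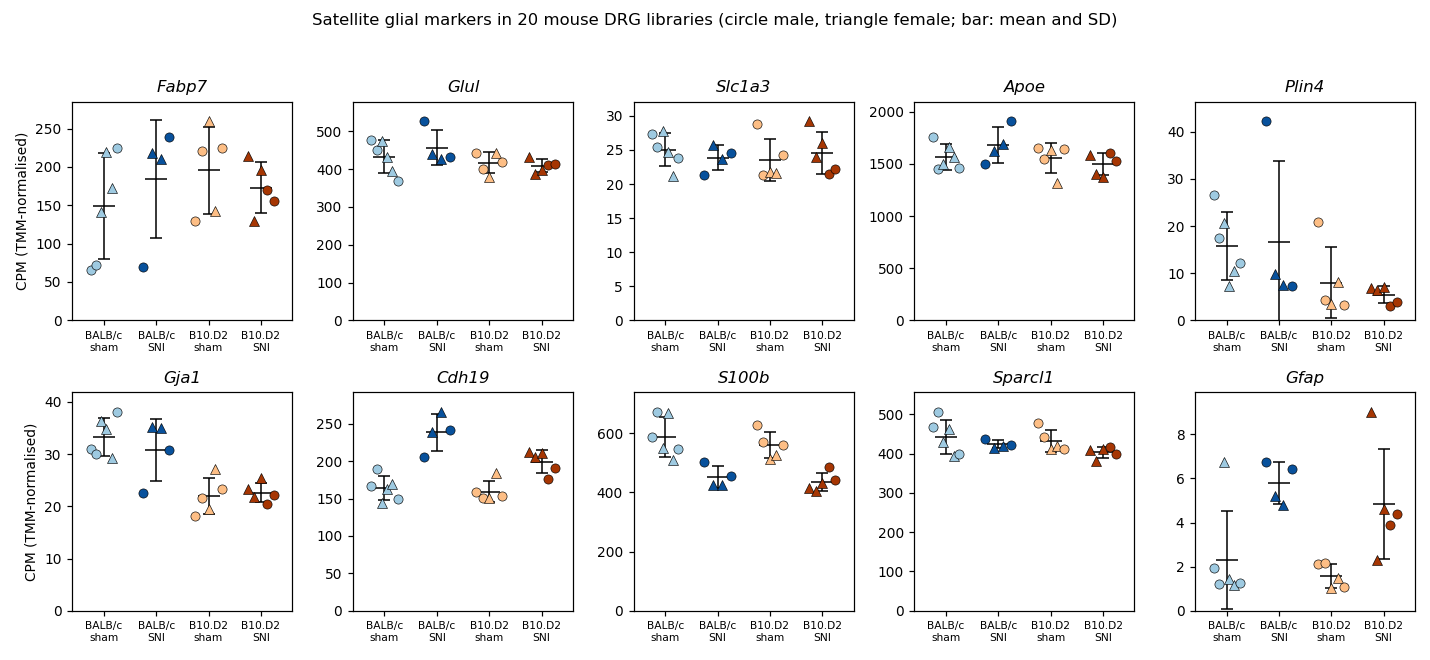
Each panel plots the level of 1 marker in CPM (vertical axis, from 0) in each of the 20 mouse libraries by group (horizontal axis), with circles for males, triangles for females, and a bar for the group mean and SD. Cdh19 and Gfap lie higher and S100b lower in the SNI groups, Gja1 lies lower in both B10.D2 groups, and libraries 49, 50 and 51 are the lowest in Fabp7.

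After SNI in BALB/c, 3 of the 10 markers were called: Gfap and Cdh19 rose and S100b fell. Among all features 9.69% were called in this comparison, 4.82% as higher and 4.87% as lower. The median log2 fold change of the 10 markers was 0.04, against 0.003 over all features. In B10.D2, 2 of 10 were called, Cdh19 as higher and S100b as lower, where 4.58% of all features were called, 2.10% as higher and 2.48% as lower. The median there was -0.03 for the markers and 0.008 for all features. No marker was called for a difference in its injury change between the strains in edgeR (0.0243% of all features were) or in DESeq2, and 1 marker, Cdh19, had an unadjusted p under 0.05. The shares of all features given here also stand beside the counts of called genes in the mouse lists below.

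**Figure D2:**
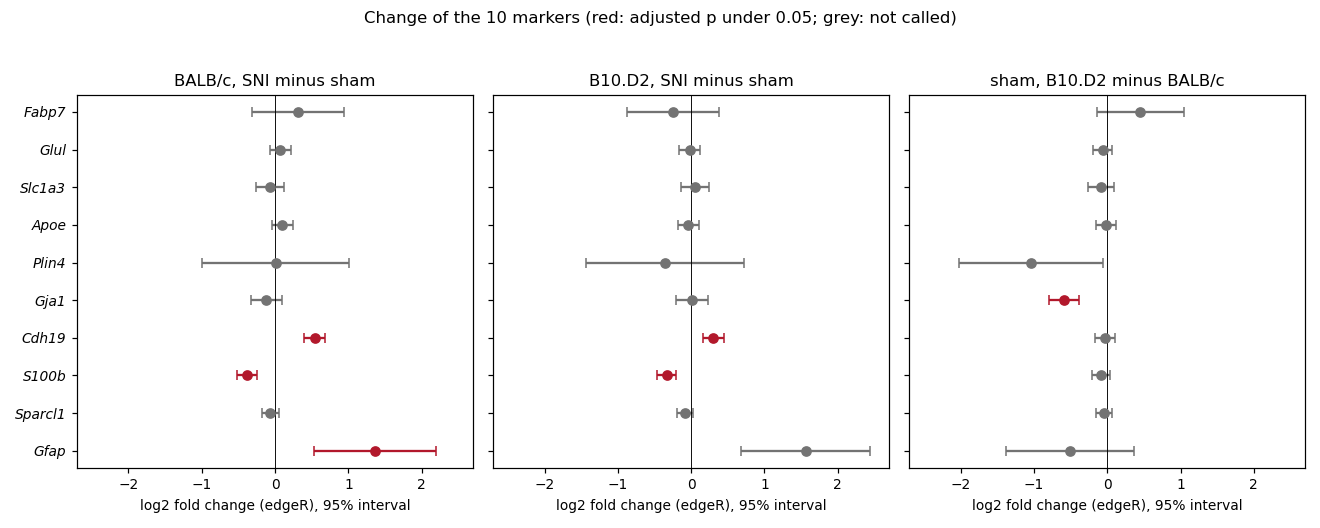
Points give the log2 fold change (horizontal axis) of each marker (vertical axis) with its 95% interval, not adjusted for the number of features, for SNI against sham in each strain and for B10.D2 against BALB/c in sham, with red for called markers. Cdh19 and S100b are red in both strains, Gfap in BALB/c alone, and Gja1 between the strains. The intervals take the normal range, which is narrower than the F test implies. For Plin4 between the strains the interval runs from -2.01 to -0.06, although its unadjusted edgeR p was 0.0503.

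Gfap encodes the intermediate filament of astrocytes and of reactive satellite glia. In BALB/c sham its level ran from 1.16 to 6.76 CPM with a median of 1.35 CPM. The BALB/c SNI libraries were at 6.75, 5.22, 4.799 and 6.44 CPM. In B10.D2 it was 2.14, 2.17, 1.03, 1.46 and 1.06 CPM in sham and 9.02, 2.30, 4.61, 3.88 and 4.37 CPM in SNI, so that the B10.D2 groups did not overlap. The BALB/c groups overlapped through 1 library, sham library 55 at 6.76 CPM, with the other 5 sham libraries at 1.94 CPM or less. Behind these values stood 38 to 323 read pairs per library, the lowest depth of the 10 markers.

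The log2 fold change of Gfap was 1.36 ± 0.42 (SE) in BALB/c (edgeR adjusted p = 0.0465) and 1.56 ± 0.45 (SE) in B10.D2 (edgeR adjusted p = 0.0505), and their difference was 0.20 ± 0.63 (SE, edgeR adjusted p = 1). The B10.D2 value lay just outside the threshold and the BALB/c value just inside it. With surgery averaged over both strains, in a model without the interaction, the log2 fold change of Gfap was 1.45 (edgeR adjusted p = 0.0014). Without BALB/c sham library 55 the BALB/c value was 2.06 (edgeR adjusted p = 0.000139) and the B10.D2 value 1.67 (edgeR adjusted p = 0.0016). Library 55 was the highest BALB/c sham library in Gfap, so leaving it out widens the BALB/c change and narrows the shared spread by construction. That fit adds no support to either value. Without libraries 49, 50 and 51 together the BALB/c value was 1.04 (edgeR adjusted p = 0.245), and the call was lost. The BALB/c call was lost in 14 of 20 fits that left out 1 library, with log2 fold changes from 1.21 to 2.06. It was kept without BALB/c sham library 55, B10.D2 sham library 58, 60 or 67, or B10.D2 SNI library 69 or 76. The B10.D2 value passed in 5 of 20, those without BALB/c sham library 51, 55, 57 or 71 or B10.D2 SNI library 76.

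Other genes of library 55 were looked up after its Gfap value was seen. It was also the highest of the 6 BALB/c sham libraries in Aqp4, the water channel of astrocytes, at 13.1 CPM against 6.64 to 8.96 CPM, and in Slc6a11, a GABA transporter of astrocytes, at 4.03 CPM against 2.09 to 2.90 CPM. The 5 markers of central astrocytes and oligodendrocytes summed to 32.7 CPM there and to 13.7 to 18.5 CPM in the other BALB/c sham libraries. Its oligodendrocyte markers Mog and Opalin were near 0, at 0.0483 and 0.0725 CPM. In B10.D2 sham the 5 markers summed to 22.2 to 36.5 CPM, with Gfap at 1.03 to 2.17 CPM. The highest of these sums was in B10.D2 sham library 88, where Gfap was at 1.06 CPM. Of the 3 tested genes of this list none rose and 1 fell after SNI in BALB/c by edgeR and by DESeq2 (unadjusted, none and 1), and the groups' sums ran from 13.7 to 32.7 CPM in sham and from 11.7 to 16.4 CPM in SNI. Library 55 likewise had the highest macrophage marker sum of its group, at 174 CPM against 68.7 to 129 CPM. With group means removed, Gfap had r = 0.64 with the central glia sum and r = 0.55 with the macrophage sum over 20 libraries (Spearman's rho 0.45 and 0.28), and 0.66 and 0.63 without libraries 49, 50 and 51. What these values contribute to Gfap in library 55 was not tested.

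Within B10.D2 SNI, Gfap was highest in library 69, which also had the highest injury marker sum (692 CPM) and the highest macrophage marker sum (236 CPM against 148 to 204 CPM). It was lowest in library 76, which had the lowest injury marker sum (348 CPM). The BALB/c SNI libraries went the other way. Gfap was highest there in library 49, with the lowest macrophage marker sum (125 CPM), and lowest in library 65, with the highest (202 CPM). Library 64 had the highest injury marker sum of that group (933 CPM) and Gfap at 5.22 CPM. Library 70 had the lowest (784 CPM) and Gfap at 6.44 CPM. Over the 20 libraries, with group means removed, the tested features of at least 5 CPM whose log2(CPM + 1) was most like that of Gfap were Igfbp3 (Pearson r = 0.83), Nhsl2 (r = 0.83) and Slc16a6 (r = 0.80), out of 13411 features searched. Spearman's rho was 0.63, 0.77 and 0.69. These libraries share sequencing, sex and strain structure, so the coefficients are descriptions.

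Cdh19 encodes a cadherin of satellite glia and of Schwann cell precursors. Its level in BALB/c sham ran from 144 to 189 CPM with a median of 165 CPM, and the BALB/c SNI libraries were at 206, 239.6, 266 and 242 CPM. The B10.D2 sham libraries were at 158, 151, 151, 184 and 153 CPM and the B10.D2 SNI libraries at 213, 205, 211, 175 and 191 CPM. Every BALB/c SNI library lay above every BALB/c sham library, and in B10.D2 the groups overlapped through sham library 77 (184 CPM) and SNI library 89 (175 CPM).

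The log2 fold change of Cdh19 was 0.54 ± 0.08 (SE, edgeR adjusted p = 6.2e-05) in BALB/c, a 1.45-fold rise, and 0.30 ± 0.08 (SE, edgeR adjusted p = 0.022) in B10.D2, a 1.23-fold rise. The BALB/c call held in all 20 fits that left out 1 library. In B10.D2 the call was lost in 5 of 20, those without sham libraries 60 or 67 or SNI libraries 69, 78 or 90, with log2 fold changes from 0.26 to 0.35 over all 20. The change was smaller in B10.D2 than in BALB/c by a log2 difference of -0.24 ± 0.11 (SE, unadjusted p = 0.0377), which did not pass after adjustment over all features (edgeR adjusted p = 1). Of other cadherins and S100 genes (13 genes), 3 rose in BALB/c, against 2 in B10.D2. The calls with the smallest adjusted p were S100a4 and S100a11, small calcium-binding proteins, at log2 fold changes of 1.14 and 0.88 in BALB/c. Most like Cdh19 within groups were Zfp62 (r = 0.88), Zfp397 (r = 0.87) and Luc7l3 (r = 0.84).

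S100b encodes a calcium-binding protein of satellite glia and of Schwann cells. In BALB/c sham it ran from 509 to 672 CPM with a median of 568.1 CPM, and the SNI libraries were at 504, 424, 427 and 455 CPM. The B10.D2 libraries were at 629, 572, 514, 527 and 559.8 CPM in sham and at 416, 405, 432, 485 and 442 CPM in SNI. In neither strain did the groups overlap, although BALB/c SNI library 49 (504 CPM) came near BALB/c sham library 57 (509 CPM).

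The log2 fold change of S100b was -0.38 ± 0.07 (SE, edgeR adjusted p = 7.2e-04) in BALB/c and -0.34 ± 0.07 (SE, edgeR adjusted p = 0.0041) in B10.D2, and both calls held in all 20 fits that left out 1 library. The difference between the strains was 0.05 ± 0.09 (SE, edgeR adjusted p = 1). Of the 9 markers of myelinating Schwann cells, which also make S100b, none was called after SNI in either strain by edgeR or DESeq2, and none had an unadjusted p under 0.05, with a median of -0.04 (log2) in BALB/c, then -0.05 in the other strain. Their sum ran from 2116 to 5127 CPM in BALB/c sham and from 2930 to 3444 CPM in BALB/c SNI. The highest sums, 5127 CPM in sham library 51 and 3948 CPM in sham library 56, were in the libraries with the highest S100b. The neuronal marker list (8 genes) had 2 genes called lower in each strain, Nefl and Snap25, with BALB/c changes of -0.43 and -0.51 on the log2 scale. With group means removed, S100b had r = 0.62 with the Schwann cell sum and r = 0.66 with the neuronal sum over 20 libraries (Spearman's rho 0.51 and 0.62). The part of either cell type in the fall of S100b was not tested.

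Sparcl1, a secreted relative of SPARC, was the marker most like S100b among the 10, with r = 0.84 and rho = 0.87 over 20 libraries after group means were removed, and r = 0.86 without libraries 49, 50 and 51. It was not called after SNI: its level ran from 394 to 506 CPM in BALB/c sham, with a median of 446 CPM, and was 438, 413, 420 and 423 CPM in BALB/c SNI. Its log2 fold change was -0.06 ± 0.06 (SE, edgeR adjusted p = 0.557) in BALB/c and -0.09 ± 0.06 (SE, edgeR adjusted p = 0.491) in B10.D2, with 95% intervals of -0.18 to 0.05 and -0.20 to 0.03. Among all features of at least 5 CPM the most like Sparcl1 were Prelid3a (r = 0.87), Clu (r = 0.86), a secreted chaperone and apolipoprotein, and Atp5g1 (r = 0.85). For S100b they were Cd99l2, Sdhd and Snn, each with r = 0.90.

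The glutamate handling markers showed little change. Glul ran from 370 to 478 CPM in BALB/c sham, with a median of 441.3 CPM, and was 526.4, 440.6, 428 and 432 CPM in SNI, with library 49 the highest. Its log2 fold change was 0.07 ± 0.07 in BALB/c (SE, edgeR adjusted p = 0.594) and -0.02 ± 0.07 in B10.D2 (SE, edgeR adjusted p = 0.929). The 95% intervals were -0.07 to 0.21 and -0.16 to 0.12, and the B10.D2 libraries ran from 379 to 443 CPM in sham and from 388 to 432 CPM in SNI. Slc1a3, the transporter GLAST, ran from 21.1 to 27.7 CPM in BALB/c sham and was 21.4, 25.7, 23.7 and 24.6 CPM in SNI, with overlapping groups in both strains. Its log2 fold change was -0.07 ± 0.10 in BALB/c (SE, edgeR adjusted p = 0.740) and 0.06 ± 0.10 in B10.D2 (SE, edgeR adjusted p = 0.842). Of 11 other genes of glutamate uptake and the glutamine cycle, none rose and 3 fell in each strain by edgeR and by DESeq2 (unadjusted, none rose in BALB/c and 1 in B10.D2). Among the called genes were Slc1a1, a neuronal glutamate transporter, with changes on the log2 scale of -0.77 in BALB/c, then -0.55 in the other strain, and Glud1, glutamate dehydrogenase, with -0.15 and -0.13. Among the features most like Glul were Prodh, proline dehydrogenase (r = 0.93), and Ezh2 (r = 0.86), and most like Slc1a3 were Tcim (r = 0.90), Fgl2 (r = 0.83) and Pkp4 (r = 0.81).

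Apoe had the highest counts of the 10 markers, 46155 to 67895 read pairs per mouse library. It ran from 1450 to 1764 CPM in BALB/c sham, with a median of 1536 CPM, and was 1498, 1620, 1696 and 1908 CPM in BALB/c SNI. The log2 fold change was 0.10 ± 0.07 in BALB/c (SE, edgeR adjusted p = 0.458) and -0.04 ± 0.07 in B10.D2 (SE, edgeR adjusted p = 0.852), and the 95% interval in BALB/c ended at 0.24. The B10.D2 libraries ran from 1320 to 1652 CPM in sham and from 1378 to 1608 CPM in SNI, so that the groups overlapped in both strains. Of 18 other genes of lipid droplets, fatty acid binding and apolipoprotein handling, 5 rose and 1 fell in BALB/c, and 4 rose and 1 fell in B10.D2. Plin2, a lipid droplet coat protein, was at 48.4 ± 3.46 CPM in BALB/c sham (SD, n = 6) and at 81.3 ± 4.81 CPM after SNI (SD, n = 4), and in B10.D2 it was at 48.2 ± 2.56 and 69.6 ± 6.96 CPM (SD, n = 5 each). Abca1, which loads lipid onto apolipoproteins, rose by 0.74 in BALB/c, then by 0.64 in the other strain, on the log2 scale. Clu was called lower in BALB/c, at -0.26 (edgeR adjusted p = 0.033). Most like Apoe within groups were Rnf215 (r = 0.94), Gadd45gip1 (r = 0.93) and Ogfr (r = 0.90).

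Gja1 encodes connexin 43, a gap junction channel, and differed between strains but was not called after injury. In BALB/c sham it ran from 29.2 to 38.1 CPM with a median of 33.0 CPM. The B10.D2 sham libraries were at 18.2, 21.6, 19.5, 27.1 and 23.3 CPM, all below the lowest BALB/c sham library. The log2 difference of B10.D2 from BALB/c was -0.59 ± 0.10 (SE, edgeR adjusted p = 1.9e-04), a level 0.665 times that of BALB/c, and it held in all 20 fits that left out 1 library (-0.65 to -0.52). Of the 10 markers 1 was called between strains in sham, where 21.6% of all features were called, 11.5% as higher and 10% as lower in B10.D2. The median over the markers was -0.07, against -0.006 over all features.

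After SNI Gja1 was 22.5, 35.1, 34.9 and 30.7 CPM in BALB/c and 23.2, 21.7, 25.4, 20.5 and 22.2 CPM in B10.D2. The groups overlapped in both strains. For Gja1 the log2 fold change was -0.12 ± 0.11 in BALB/c (SE, edgeR adjusted p = 0.567) and 0.01 ± 0.11 in the other strain (SE, edgeR adjusted p = 0.974). Of 10 other gap junction and pannexin genes none was called between strains by edgeR or DESeq2, nor had an unadjusted p under 0.05, while Gjc1, connexin 45, rose and Gjd2, a neuronal connexin, fell after SNI in BALB/c, at log2 fold changes of 0.46 and -1.05. Gjd2 also fell in B10.D2 (-0.81). Within groups the features most like Gja1 were Gusb (r = 0.85), Tcea1 (r = 0.82) and Riox2 (r = 0.81).

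Among 20 other satellite glial genes, 1 was called higher and 5 lower in B10.D2 sham, where 21.6% of all features were called. The higher call was lost in 8 of 20 fits that left out 1 library: BALB/c sham library 51, 55 or 56, B10.D2 sham library 60 or 67, BALB/c SNI library 65 or 70, or B10.D2 SNI library 90. Kcnj10, the potassium channel Kir4.1 of satellite glia, is named here after its values were seen: it was at 63.7 ± 7.09 CPM in BALB/c sham (SD, n = 6) and 27.2 ± 5.84 CPM in B10.D2 sham (SD, n = 5), a log2 difference of -1.22 (edgeR adjusted p = 6.8e-08). Its levels after SNI were 70.6 ± 10.6 CPM (SD, n = 4) and 27.9 ± 3.62 CPM (SD, n = 5), with no overlap between strains. After SNI 5 of these 20 genes rose and 1 fell in BALB/c, with a median of 0.14. Of all features 4.82% were called higher and 4.87% lower in that comparison. The 5 risen genes became 3 without BALB/c SNI library 65 or 70, and 8 with library totals alone. Lgi4, a secreted ligand of the glial lineage, and Erbb3, the neuregulin receptor of that lineage, rose by log2 fold changes of 0.52 and 0.49. Aldoc, an aldolase of glia, fell by 0.37 on the log2 scale in BALB/c and by 0.40 in B10.D2, where no gene of the list rose in edgeR (4 at an unadjusted p under 0.05, 2 in DESeq2) and the median was 0.07.

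Within the mouse groups, the coefficient of variation ran from 34.1% to 102% for Plin4, from 16.2% to 96.1% for Gfap, from 19.2% to 46.7% for Fabp7 and reached at most 19.2% for the other markers, that of Gja1 in BALB/c SNI. Plin4 ran from 7.20 to 26.7 CPM in BALB/c sham, with a median of 14.7 CPM, and was 42.2, 9.81, 7.50 and 7.29 CPM in BALB/c SNI. The B10.D2 libraries were at 20.9, 4.31, 3.53, 8.04 and 3.26 CPM in sham and at 6.87, 6.49, 6.99, 3.08 and 3.81 CPM in SNI. Single libraries, 49 in BALB/c SNI and 58 in B10.D2 sham, set the top of their groups. No injury change was called (log2 fold change 0.01 ± 0.51 in BALB/c and -0.36 ± 0.55 in B10.D2, SE, edgeR adjusted p = 0.997 and 0.817). Without libraries 49, 50 and 51 the BALB/c change of Plin4 was -0.621, also not called. The log2 difference of B10.D2 from BALB/c in sham was -1.04 ± 0.50 (SE, edgeR adjusted p = 0.159), and -1.69 (edgeR adjusted p = 0.0186) without B10.D2 sham library 58. Library 58 was the highest B10.D2 sham library in Plin4, so leaving it out widens the difference by construction. That fit adds no support to a strain difference.

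Plin4 is also made in fat cells. The features most like it were Cd36, a fatty acid transporter (r = 0.93), Slc1a5 (r = 0.92) and Cyp2e1 (r = 0.91). A list of 5 adipocyte genes (Plin1, Fabp4, Adipoq, Cidec and Car3), chosen after values were seen, summed to 49.2 to 118 CPM in BALB/c sham, 33.0 to 106 CPM in BALB/c SNI, 15.5 to 84.9 CPM in B10.D2 sham and 34.2 to 87.4 CPM in B10.D2 SNI. None of the 5 was at 0 in any group. With group means removed, r of Plin4 with this sum was 0.81 over 20 libraries (rho = 0.80) and 0.83 without libraries 49, 50 and 51. In sham 3 of the 5 genes were called lower in B10.D2 than in BALB/c, with a median of -1.43. The part of fat tissue in the Plin4 values was not tested.

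Fabp7, the brain-type fatty acid binding protein, was at 65.8 CPM in BALB/c sham library 50 and 71.6 CPM in library 51, and at 141 to 225 CPM in the other 4. In BALB/c SNI it was 70.03 CPM in library 49 and 218, 211 and 239 CPM in the rest. The B10.D2 libraries were at 130, 220, 259, 142 and 225 CPM in sham and 214, 130, 196, 170 and 155 CPM in SNI. So 3 libraries of BALB/c, of both surgery groups, lay below every other mouse library. No comparison called Fabp7: the log2 fold change was 0.31 ± 0.32 in BALB/c (SE, edgeR adjusted p = 0.617) and -0.25 ± 0.32 in B10.D2 (SE, edgeR adjusted p = 0.773), with 95% intervals of -0.31 to 0.94 and -0.87 to 0.38. Without libraries 49, 50 and 51 these changes were 0.23 and -0.17, and with 1 library left out at a time the BALB/c change ran from 0.03 to 0.57.

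The same 3 libraries stood apart in clock genes, a list looked up after the Fabp7 values were seen. Arntl, the activator of the molecular clock, was at 4.01 to 6.17 CPM there and at 6.85 to 17.9 CPM in the other 17 libraries. Genes that the clock drives went the other way: Dbp was at 26.1 to 29.8 CPM against 4.71 to 13.5 CPM, Ciart at 4.86 to 6.23 against 0.856 to 1.95 CPM and Nr1d1, the repressor REV-ERB alpha, at 9.98 to 16.97 against 1.70 to 6.64 CPM. The hours at which ganglia were taken are not given in the sources used here. Of 15 clock genes none was called after SNI in either strain by edgeR or DESeq2, and 2 in BALB/c and none in B10.D2 had an unadjusted p under 0.05. In rat 5 of 10 tested clock genes rose after SNT (6 in DESeq2), with a median of 0.45. Of all rat features 12.3% were called higher.

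Out of all features of at least 5 CPM, Arntl was the one most like Fabp7 (r = 0.89, rho = 0.76), followed by Tmem132a (r = 0.86) and Sash1 (r = 0.84), and Tef, which the clock drives, was the most opposite (r = -0.91, rho = -0.81; named after its values were seen). Without libraries 49, 50 and 51 r was 0.59 for Arntl and -0.66 for Tef over 17 libraries. For Dbp r went from -0.82 to -0.19, for Ciart from -0.86 to -0.17 and for Nr1d1 from -0.62 to 0.28. Within the 10 B10.D2 libraries r was 0.80 for Arntl, -0.63 for Tef, -0.31 for Dbp, -0.45 for Ciart and 0.21 for Nr1d1. For Plin4 and Glul the pattern ran opposite to Fabp7: r of Fabp7 was -0.77 with Plin4 and -0.73 with Glul over 20 libraries, and -0.66 and -0.49 over the 17. Coefficients of Glul with clock genes moved with the 3 libraries: r was -0.44 with Arntl, 0.48 with Dbp and 0.69 with Tef over 20 libraries, and 0.17, -0.22 and 0.35 over the 17. Within B10.D2 they were -0.07, -0.09 and -0.09. With Hlf, another gene that the clock drives, r of Glul was 0.74 over 20 libraries and 0.73 over the 17. Among the 45 pairs of markers, 5 had r above 0.5 and 3 had r below -0.5, with a median of 0.10.

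**Figure D3:**
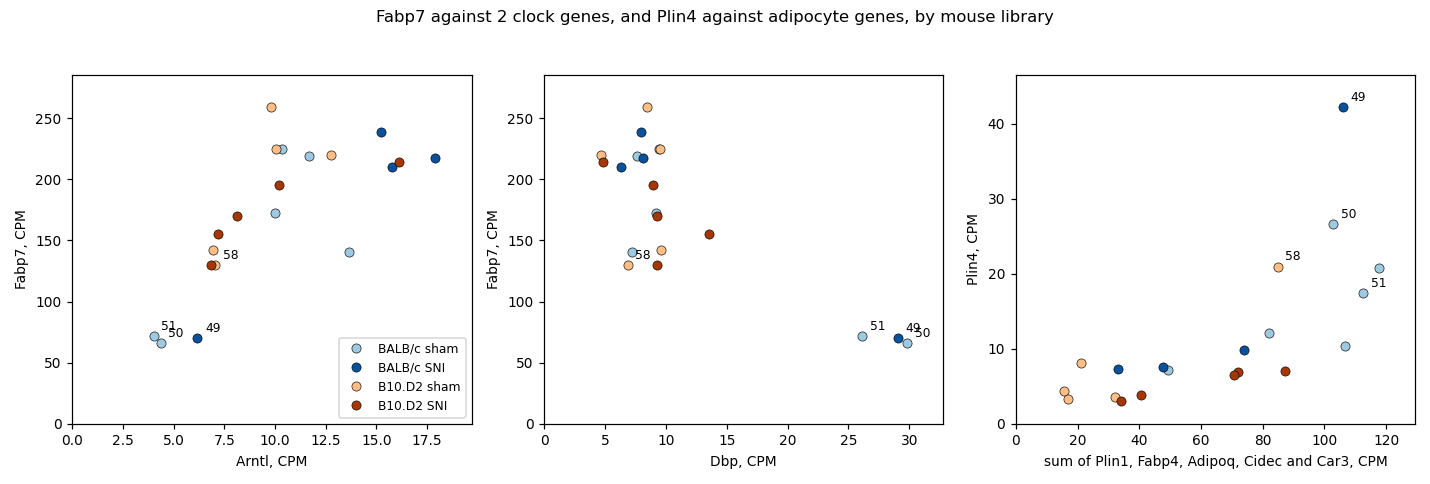
The first 2 panels plot Fabp7 (vertical axis, CPM) against the clock genes Arntl and Dbp (horizontal axis, CPM), and the last plots Plin4 against the sum of 5 adipocyte genes, 1 point a mouse library, with libraries 49, 50, 51 and 58 numbered. Libraries 49, 50 and 51 sit apart at low Fabp7, low Arntl and high Dbp. Libraries 49, 50 and 58 are high in Plin4 and in the adipocyte genes. Other libraries with high adipocyte sums had lower Plin4. BALB/c sham library 57 had a sum of 107 CPM and Plin4 at 10.4 CPM. B10.D2 SNI library 78 had a sum of 87.4 CPM and Plin4 at 6.99 CPM.

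**Figure D4:**
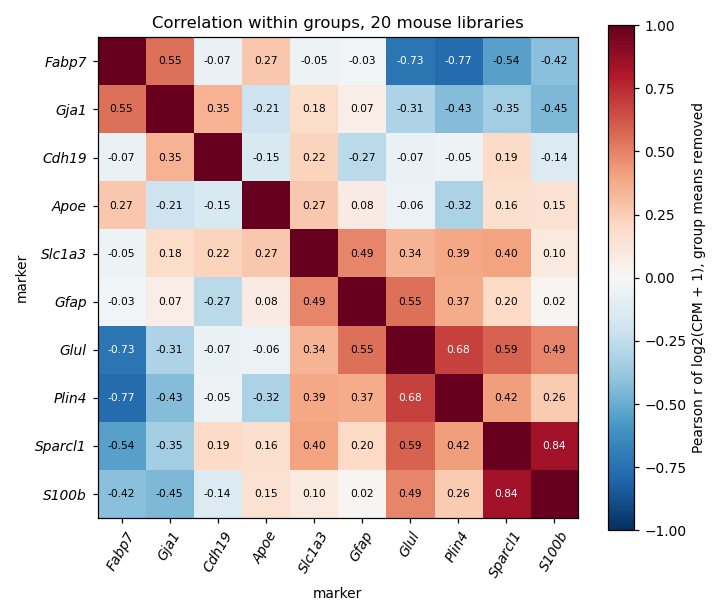
The heat map gives Pearson's r of log2(CPM + 1) between each pair of the 10 markers (both axes) over 20 mouse libraries after group means were removed. S100b with Sparcl1 is the highest pair (0.84) and Fabp7 with Plin4 the lowest (-0.77).

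The sequences before the starts of Fabp7 and Glul are shown because, of the 8 markers with a window, these alone held TAGGTCA, so that they were chosen after the search. Plin4, which also ran opposite to Fabp7, had no match to any motif searched. The sequences shown are the 250 bases upstream of the RefSeq start on GRCm38.p6, both on the plus strand, Fabp7 at chr10:57784673-57784922 and Glul at chr1:153899679-153899928. RefSeq windows matched 8 of the 10 markers, all but Cdh19 and Sparcl1. TAGGTCA is the core of the element that REV-ERB and ROR receptors bind. Capitals mark these letters, which read TGACCTA where they lie on the minus strand:
Fabp7: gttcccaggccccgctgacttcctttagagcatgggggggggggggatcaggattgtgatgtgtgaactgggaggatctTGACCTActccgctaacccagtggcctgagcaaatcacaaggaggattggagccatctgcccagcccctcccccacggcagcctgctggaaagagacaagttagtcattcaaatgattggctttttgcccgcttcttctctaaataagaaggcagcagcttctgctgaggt
Glul: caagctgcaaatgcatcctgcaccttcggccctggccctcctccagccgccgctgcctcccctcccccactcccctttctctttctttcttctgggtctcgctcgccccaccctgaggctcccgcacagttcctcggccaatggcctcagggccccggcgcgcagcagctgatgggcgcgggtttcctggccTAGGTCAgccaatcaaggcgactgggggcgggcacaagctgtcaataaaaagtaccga

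In Fabp7 the match began 171 bases before the start on the minus strand, and in Glul 58 bases before it on the plus strand. Searched on both strands, TAGGTCA was present in 2.23% of 32851 windows of 250 bases over all RefSeq starts. Of the other motifs searched, the E-box CACGTG (6.02% of windows) and the D-box TTATGTAA (0.819%) had no match in the 8 markers' windows. ACANNNTGT (5.84%) matched in Glul at 25 bases before the start, and TTCNNNGAA (7.02%) in Slc1a3 at 96 bases before it. No motif match overlapped another. A match describes letters in a window and not a bound site.

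No marker was called between sexes by edgeR (0.243% of all features were) or by DESeq2, and 1 of 10, S100b, had an unadjusted p under 0.05. Its log2 difference of females from males was -0.13 ± 0.05 (SE, edgeR adjusted p = 0.245). Libraries 49, 50 and 51 were all male, and for Fabp7 the sex difference was 0.32 ± 0.23 (SE) with them and -0.03 without them.

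On mm10 Gja1, Fabp7 and S100b lie on chromosome 10, Cdh19 and Glul on chromosome 1, and the other markers on a chromosome each. Within 25 kilobases of a marker lay 3 of the LncRNAs that the authors assembled from these reads outside known gene models. LncRNA5922 (chr10:76227586-76258921, plus strand) overlaps the S100b gene (chr10:76253853-76261159, plus strand) on the same strand, with 2 of its 10 exons inside the gene and 0 bases shared with S100b exons, so that they lie in an intron. It was at 2.23 ± 0.347 CPM in BALB/c sham (SD, n = 6) and was not called after SNI (log2 fold change -0.08 ± 0.13 in BALB/c and -0.15 ± 0.13 in B10.D2, SE, edgeR adjusted p = 0.767 and 0.635). LncRNA2308 lies 11461 bases from Gfap on the same strand, at 0.884 ± 0.162 CPM in BALB/c sham (SD, n = 6), and its SNI change in BALB/c was -0.18 ± 0.19 on the log2 scale (SE, edgeR adjusted p = 0.623). In B10.D2 it was 0.29 ± 0.19 (SE, edgeR adjusted p = 0.502). LncRNA3890 lies 5512 bases from Glul on the opposite strand and had 1 to 14 read pairs per library. The change of LncRNA3890 was -0.07 ± 0.46 in BALB/c (SE, edgeR adjusted p = 0.956) and -1.49 ± 0.51 in B10.D2 (SE, edgeR adjusted p = 0.108) on the log2 scale.

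In rat only 2 of the 9 listed markers had counts, Slc1a3 and Apoe. Gfap, Fabp7, Glul, S100b, Gja1, Cdh19 and Sparcl1 were listed at 0 in all 8 pools. Of 13702 symbols tested in mouse and listed in rat, 5129 (37.4%) were likewise at 0 in every pool, among them Actb, Ppia and Rplp0, genes that every cell uses. A 0 here therefore does not measure absence, and no floor is given for these markers.

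Slc1a3 in rat was 46.1, 50.6, 47.5 and 44.6 CPM in sham and 45.7, 29.5, 31.0 and 31.8 CPM in SNT. Of the 4 SNT pools 3 lay below all sham pools, and SNT pool 1 lay within the sham range. The log2 fold change was -0.45 ± 0.14 (SE, edgeR adjusted p = 0.042), where 27.4% of all features were called, 12.3% as higher and 15.1% as lower. The call was lost in 6 of 8 fits that left out 1 pool, with log2 fold changes from -0.62 to -0.38. It was also lost with the sequencing run as a replicate block (log2 fold change -0.47, edgeR adjusted p = 0.071). Without sham pool 4 and SNT pool 1 the change was -0.63 (edgeR adjusted p = 0.0013). These are the lowest sham pool and the highest SNT pool in Slc1a3, so leaving them out widens the change by construction. That fit adds no support to the call.

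Apoe in rat was 7677, 7990, 7782 and 11790.3 CPM in sham and 8116, 6418, 7517 and 5950.3 CPM in SNT. Sham pool 4, the pool with the raised injury marker sum, was the highest, and its macrophage marker sum was 273 CPM against 73.4 to 118 CPM in the other sham pools. The groups overlapped, and the change, -0.33 ± 0.20 on the log2 scale (SE, edgeR adjusted p = 0.229), was -0.22 (edgeR adjusted p = 0.362) without sham pool 4 and SNT pool 1. The median of both markers was -0.39, against 0.003 over all features.

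**Figure D5:**
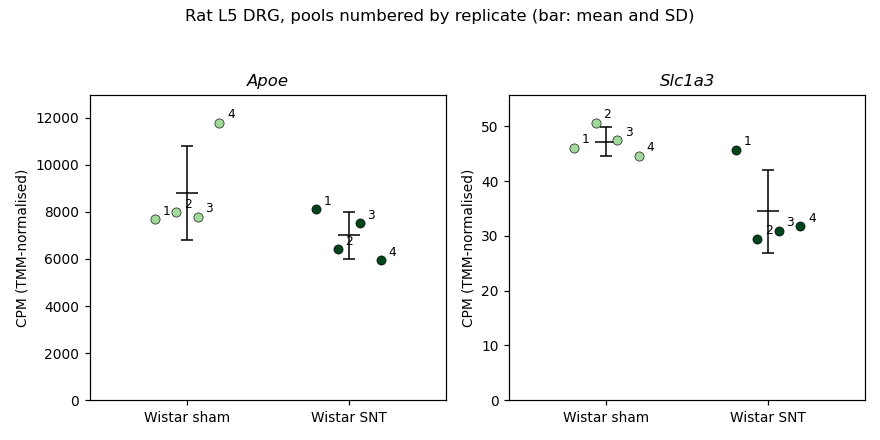
Points give Apoe and Slc1a3 in CPM (vertical axis, from 0) in the 8 rat pools by group (horizontal axis), numbered by replicate, with a bar for the mean and SD. Sham pool 4 is the highest in Apoe at 11790.3 CPM, and SNT pool 1 (45.7 CPM) lies with the sham pools in Slc1a3.

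Of all rat features 12.3% were called higher after SNT and 15.1% lower. Among the 20 other satellite glial genes, 11 had counts in rat and were tested, of which 7 rose and 1 fell, with a median of 0.65. Schwann cell genes moved beside them: 2 of 5 tested myelinating genes rose, with all 5 above 0 and a median of 0.59, as did 2 of 3 non-myelinating genes, with a median of 0.33, and their part in the change of these glial genes was not tested. Sox10, a transcription factor of the glial lineage, and Lgi4 rose by log2 fold changes of 0.97 and 0.78 (edgeR adjusted p = 0.0108 and 0.0114), and Fbln5, a matrix protein, fell by 0.66 on the log2 scale. The number of genes of the list that fell went from 1 to 0 without sham pool 1, 2 or 3 or SNT pool 2, 3 or 4, and to 2 without sham pool 4 or SNT pool 1. Of the 9 tested genes of glutamate uptake and the glutamine cycle 3 rose and 2 fell. Slc1a1 was called higher in rat (0.66), the opposite direction from its fall in both mouse strains, and Slc17a7, a vesicular glutamate transporter, was called lower in rat (-1.12) as in both mouse strains. The surgery, day, library type and ganglion differ between the species, so these values stand side by side without a test.

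The reactive glia and gp130 list (17 genes) had 5 genes called higher and none lower in BALB/c, 3 higher in B10.D2, and 3 higher of 12 tested in rat, with medians of 0.23, 0.13 and 0.38. Vim, an intermediate filament that Gfap pairs with in glia, rose in both strains, by 0.49 in BALB/c on the log2 scale, then by 0.34 in the other. Tnc, a matrix protein, was at 18.7 ± 6.45 CPM in BALB/c sham (SD, n = 6) and at 78.9 ± 17.03 CPM after SNI (SD, n = 4), and in B10.D2 it was at 14.03 ± 2.72 and 76.7 ± 28.4 CPM (SD, n = 5 each). Injury markers of neurons rose in 11 of 11 tested genes in BALB/c, 10 of 11 in B10.D2 and 7 of 8 in rat, with medians of 3.24, 2.69 and 1.68, led by Gal and Gpr151 in BALB/c. Of 8 cell cycle genes 1, Ccnb1, was called in BALB/c, where 7 were higher at an unadjusted p under 0.05 and the median was 0.84, and none in B10.D2 or in the 4 tested in rat by edgeR, by DESeq2 or at an unadjusted p under 0.05.

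Markers of other cells that a ganglion holds also moved. Of 7 macrophage genes 3 rose in BALB/c, none was called in B10.D2 by edgeR (6 at an unadjusted p under 0.05, 1 in DESeq2) and 1 of 3 rose in rat, and their sum ran from 68.7 to 174 CPM in BALB/c sham, 125 to 202 CPM in BALB/c SNI, 134 to 163 CPM in B10.D2 sham and 148 to 236 CPM in B10.D2 SNI. Of 4 genes of non-myelinating Schwann cells 2 rose in BALB/c and none in B10.D2 by edgeR or DESeq2 (2 unadjusted), of 4 endothelial genes 1 rose in BALB/c, and of 4 fibroblast genes 1, Lum, rose in both strains and in rat. Their part in the changes of Cdh19, Gfap and S100b was not tested.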

How the data were processed

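Read pairs were measured in 20 mouse and 8 rat DRG libraries. Per the study's methods, the authors aligned strand-specific paired-end reads with STAR to mm10 and rn6 and counted them with HTSeq (intersection-nonempty). The deposited tables hold raw counts per feature. The authors' DESeq2 tables (fold changes and p-values) were used for gene symbols alone. Splice junction tables and the rat LncRNA table were not used. Groups come from the labels. The labels name 2 further mouse samples, not analysed here. The 10 markers, all lists and the motifs were chosen with earlier results of these data known, and 4 lists (clock, adipocyte, glucocorticoid-induced and every-cell genes) after marker values were seen.

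Counts were tested with edgeR 4.0.16 in R 4.3.3 (filterByExpr, TMM, quasi-likelihood F test, two-sided), with sex and strain by surgery in mouse and surgery in rat. An adjusted p under 0.05 over all features was called. The SE is the size of the change over the root of F, and intervals take the normal range. CPM divides counts by the TMM-scaled total. A count of 3 is 0.0716 to 0.1 CPM in mouse and covers counting error only. The mouse samples are separate animals, and rat pools hold 3 animals each. Gene positions and merged exons came from GENCODE M21 on mm10. All members are named throughout. Of each other list, up to 2 called genes of smallest adjusted p in each direction in BALB/c (rat: after SNT) could be named, and for each marker the 3 features of at least 5 CPM with the highest r of log2(CPM + 1). For Glul 1 of the 3 is not reported here. Alternatives were DESeq2 1.42.0, other size factors and filters, other models, a run block in rat and leaving out libraries. The edgeR fit was tested on simulated data with known changes. In BALB/c it recovered 44% of 1.3-fold, 76% of 1.5-fold and 96% of 2-fold changes. In rat it recovered 2%, 10% and 64% of them, so a small rat change can go uncalled. False calls were 7 of 165 calls in BALB/c and 9 of 97 in rat. The changed genes were drawn from the better counted features, so recovery at low counts was not tested. Each rat sequencing run held 1 sham and 1 SNT pool, and the main rat fit left the run out. With group means removed, correlations between the pools of a run were 0.05, -0.29, -0.11 and -0.09. Those of the other pairs ran from -0.56 to 0.49. Such coefficients over few pools cannot decide whether the pools are paired. With the run as a block 2558 rat features were called, against 3753 in the main fit. Glucocorticoid-induced genes had 1 of 7 called lower in BALB/c, none in B10.D2 by edgeR (2 unadjusted, 1 in DESeq2) and 1 of 3 lower in rat.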

Additional observations from a re-analysis of the deposited data

Results flagged for a closer look

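Single libraries far from the rest of their group appeared in 8 of 44 sets of marker by group. About 1 in 20 would do so by chance in independent sets of normally spread values. The sets here share libraries, and library 49 stood out in more than 1 of them, so that share is no test. In mouse, Gfap was 6.76 CPM in BALB/c sham library 55 against 1.16 to 1.94 CPM in the other 5. BALB/c SNI library 49 was the lowest of its group in Fabp7 (70.03 CPM against 211 to 239 CPM) and the highest in Glul (526.4 CPM against 428 to 440.6 CPM) and Plin4 (42.2 CPM against 7.29 to 9.81 CPM). B10.D2 sham library 58 was the highest in Plin4 (20.9 CPM against 3.26 to 8.04 CPM) and B10.D2 sham library 77 in Cdh19 (184 CPM against 151 to 158 CPM). In rat, sham pool 4 was the highest in Apoe (11790.3 CPM against 7677 to 7990 CPM) and SNT pool 1 in Slc1a3 (45.7 CPM against 29.5 to 31.8 CPM).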

How the results depend on the processing

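DESeq2, other size factors, other filters, other models and leaving out libraries were applied to each marker in each comparison, and leaving out libraries 49, 50 and 51 together was chosen after seeing the data. In BALB/c the calls of Cdh19 and S100b held in all of them. All direction changes were in values that were not called. With library totals alone the B10.D2 change of Glul was 0.00518. The BALB/c change of Plin4 was -0.00153 with no filter, -0.164 in the additive model and -0.055 with the strain fitted alone. In the additive model, which gives 1 change for both strains, it was 0.0281 for Fabp7, 0.0217 for Glul, 0.0245 for Apoe, -0.0105 for Slc1a3 and -0.058 for Gja1, against the B10.D2 values. Without libraries 49, 50 and 51 the BALB/c change was 0.0178 for Slc1a3 and -0.621 for Plin4, the strain by injury difference of Plin4 was 0.0208, the strain difference in sham was 0.0071 for Glul, 0.0725 for Cdh19 and 0.0322 for Sparcl1, and the sex difference was -0.0328 for Fabp7, 0.0251 for Glul and 0.117 for Plin4.

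With 1 library left out at a time, the number of markers called ranged from 2 to 3 in BALB/c, 1 to 3 in B10.D2, 0 to 0 for strain by injury, 1 to 2 between strains, 0 to 1 between sexes and 0 to 1 in rat. In BALB/c Plin4 ranged from -0.906 to 0.267. In B10.D2 Glul ranged from -0.0562 to 0.0105, Slc1a3 from -0.00624 to 0.135, Gja1 from -0.0635 to 0.0816 and Plin4 from -0.557 to 0.217. For strain by injury the ranges were -0.387 to 0.375 for Gfap, -0.00418 to 0.0871 for S100b, -0.633 to 0.408 for Plin4 and -0.0632 to 0.0184 for Sparcl1. Between strains they were -0.67 to 0.153 for Gfap, -0.0515 to 0.041 for Apoe and -0.0786 to 0.0304 for Cdh19, and between sexes -0.142 to 0.314 for Gfap and -0.0081 to 0.0577 for Slc1a3. S100b was called between sexes without BALB/c sham library 56.

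Gfap in BALB/c was not called without the sex term (1.32), with the strain fitted alone (1.41) or without libraries 49, 50 and 51 (1.04, edgeR adjusted p = 0.245), and in B10.D2 it was called under DESeq2, median-of-ratios size factors, no filter, a minimum of 10 counts, no sex term, the additive model and the strain fitted alone. In rat 0 markers were called with no filter and 0 with the sequencing run as a replicate block, where the pairing of pools rests on the run number alone. Over all features the sex calls were 60 by edgeR, 240 by DESeq2 and 222 with no filter, and the strain by injury calls were 6 by edgeR, 10 by DESeq2 and 3 with a minimum of 10 counts. The additive model called 4133 features. In rat 6105 features were called without sham pool 4 and SNT pool 1, against 3753. Why these values moved was not tested. The counts behind Gfap were the lowest, and the rat tests rest on 4 pools a group.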
